A study of Mus musculus with 47 samples.

Results

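Serpina3n, Cd44, Cp, S1pr3, Dhrs1, Emp1 and Steap4, genes known to rise in reactive astrocytes or named for this response when the study was published, were followed in the hypothalamus of mice that received fibroblast growth factor 1 (FGF1) into the brain. The genes were selected by symbol, and 6 of the 7 were among the 14221 genes of the count table. Steap4 is not analysed here. The members were chosen with the response of Days 1 and 5 known, so differences between FGF1 and vehicle on those days are given as a description. Where members are said to pass thresholds on those days, this rests on an adjusted p and a log2 fold change. It serves as a label and is no test of the members. Tests were kept for measures that the choice had not used: the comparison of Day 42, the comparison of the vehicle groups with each other, and the spread among mice of a group.

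Hypothalamic RNA was sequenced from 47 male ob/ob mice, which lack functional leptin, with an age label of 11 weeks and 1 library per mouse. FGF1-treated mice had received a single dose of 3 µg into a cerebral ventricle (icv), as recombinant human protein according to the published methods, and their tissue was taken on Day 1 (n = 10), Day 5 (n = 9) or Day 42 (n = 5). Vehicle-treated mice received icv vehicle and were pair-fed to the FGF1-treated mice: those labelled non-diabetic were killed on Day 1 (n = 4), Day 5 (n = 7) or Day 42 (n = 5), and a further group labelled diabetic on Day 5 (n = 7). The published methods give fewer vehicle-treated mice on Day 5 than the labels and exclude ob/ob mice under a blood glucose limit, so what the label non-diabetic stands for is not settled by the sources used here. Every group carried the ob/ob mutation and had been injected, and none was lean or uninjected. Food was restricted in the vehicle-treated mice alone, and the general methods give pair-feeding only for the first days. The tissue was a punch holding all cell types of the hypothalamus, so fewer cells of a type and less RNA per cell cannot be told apart.

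Astrocytes answer injury, inflammation and growth factors with a change of state called reactivity, in which they enlarge, express more intermediate filament and secrete protease inhibitors, matrix and signalling proteins. Transcripts raised after most insults are called pan-reactive, those raised mainly after bacterial endotoxin A1, and those raised mainly after ischemia A2. In the hypothalamus, astrocytes share the tissue with the related tanycytes and ependymal cells, which line the ventricle there. Serpina3n encodes a secreted serine protease inhibitor, Cd44 a surface receptor for hyaluronan, Cp the copper-carrying ferroxidase ceruloplasmin, S1pr3 a G protein-coupled receptor for sphingosine-1-phosphate, Dhrs1 a short-chain dehydrogenase and Emp1 a tetraspan epithelial membrane protein.

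In the GENCODE M21 annotation of GRCm38, Serpina3n lies on the forward strand at chr12:104406729-104414329, Cd44 on the reverse strand at chr2:102811141-102901665, and Cp on the forward strand at chr3:19957054-20009145. S1pr3 lies on the forward strand at chr13:51408639-51422797, Dhrs1 on the reverse strand at chr14:55739020-55745690, and Emp1 on the forward strand at chr6:135362545-135383173. All 6 are protein-coding genes on separate chromosomes. Exons of Cp share 108 bases with Hps3 and exons of S1pr3 share 45 bases with the noncoding Gm32834, both on the opposite strand. The counting program and its strand setting are not given in the sources used here, so a small share of reads of these genes could not be assigned with certainty.

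The 250 bases before each RefSeq transcription start (GRCm38.p6) were searched because 5 of these genes were higher together on Day 1. Shown here are the bases before Serpina3n, the member with the highest level, Emp1, the member with matches to more than a single motif, and Cp, the member whose level followed the others least, each 5′ to 3′ and only where no annotated exon lies. Capitals mark matches to TTCNNNGAA, the core bound by STAT factors, or to TGANTCA, the core bound by AP-1 factors.
Serpina3n (chr12:104406458-104406707, forward strand): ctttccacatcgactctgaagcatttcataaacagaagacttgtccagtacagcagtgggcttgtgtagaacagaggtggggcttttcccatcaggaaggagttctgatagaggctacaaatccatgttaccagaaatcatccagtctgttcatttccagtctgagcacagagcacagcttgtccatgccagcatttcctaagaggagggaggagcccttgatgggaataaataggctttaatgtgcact
Emp1 (chr6:135362708-135362903, forward strand): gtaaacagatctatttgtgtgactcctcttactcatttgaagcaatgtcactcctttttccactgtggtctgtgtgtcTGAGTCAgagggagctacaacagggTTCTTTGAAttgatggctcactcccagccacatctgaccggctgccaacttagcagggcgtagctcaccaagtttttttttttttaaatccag
Cp (chr3:19956804-19957053, forward strand): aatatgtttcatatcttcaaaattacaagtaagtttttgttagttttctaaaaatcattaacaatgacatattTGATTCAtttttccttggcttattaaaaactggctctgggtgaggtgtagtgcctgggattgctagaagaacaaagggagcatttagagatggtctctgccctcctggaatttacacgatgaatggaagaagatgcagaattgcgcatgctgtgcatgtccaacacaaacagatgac

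On both strands, TTCNNNGAA was present in 7.02% and TGANTCA in 6.75% of 32851 such windows. Among the 8 windows of the 6 measured members, TTCNNNGAA occurred before Emp1 alone, at 120 and 22 bases before the start. TGANTCA occurred before Emp1, at 145 and 25 bases, and before Cp, at 177 bases. The match at 145 bases before Emp1 reads TGAGTCA, and those at 25 bases and before Cp read TGATTCA. The Emp1 matches nearest to the start overlap each other and lie in bases annotated as exon, and are therefore not shown. GGAAGT, a longer string that holds the GGAA core bound by ETS factors, was present in 19.7% of all windows and in no window of a measured member. GGAA alone was not searched. The windows of Serpina3n, S1pr3, Cd44 and Dhrs1 held none of the searched strings.

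Library totals ran from 1243280 to 47082403 counts on Day 1, from 7579695 to 30009258 on Day 5 and from 19416026 to 43934003 on Day 42, and 1 FGF1-treated mouse of Day 1 (replicate 1) had the lowest total. Each day had its own preparation code and 0 codes were shared, so day and preparation cannot be told apart, while each contrast within a day lies in 1 preparation. All 9 listed markers of hypothalamic neurons (among them Agrp, Pomc and Avp) and all 10 of astrocytes were detected at a mean of at least 1 CPM in every group. Levels are CPM, read counts relative to the library total scaled by TMM factors, and log2 fold changes (log2 FC) with their standard errors (SE) come from 1 edgeR fit of all libraries.

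On the day after injection, 5 of the 6 measured members lay higher in each of the 10 FGF1-treated mice than in any of the 4 vehicle-treated mice, and Cp did not. The 5 differences ran from 4.42-fold for Dhrs1 to 14.3-fold for Serpina3n. Serpina3n, which inhibits serine proteases outside the cell, measured 77.4, 63.4, 72.5 and 71.3 CPM in the vehicle-treated mice, and 706, 1065 and 1222 CPM as the lowest, median and highest of the FGF1-treated mice. The lowest FGF1-treated mouse thus stood 9.12 times above the highest vehicle-treated mouse, and the log2 FC was 3.84 (SE 0.13), place 12 from the top of 14221 genes. S1pr3, the receptor for sphingosine-1-phosphate, measured 12.6, 11.8, 16.0 and 13.5 CPM in the vehicle-treated mice and 109, 135 and 178 CPM as the lowest, median and highest with FGF1. The S1pr3 ranges lay 6.81 times apart at their nearest points, and its log2 FC of 3.38 (SE 0.09) had one of the smallest errors among the members.

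Emp1, a small membrane protein and one of the A2 transcripts, measured 6.15, 9.32, 5.61 and 4.16 CPM with vehicle and 53.0, 77.7 and 106 CPM as the lowest, median and highest with FGF1. These ranges did not overlap, and the log2 FC was 3.67 (SE 0.17). Cd44, the hyaluronan receptor, measured 19.6, 23.7, 14.5 and 14.2 CPM with vehicle and 107, 130 and 183 CPM as the lowest, median and highest with FGF1. Again no FGF1-treated mouse came near a vehicle-treated mouse, with a log2 FC of 2.88 (SE 0.13). Dhrs1, the least induced of the 5, measured 55.7, 46.5, 51.2 and 66.0 CPM with vehicle and 202, 243 and 279 CPM as the lowest, median and highest with FGF1. Its log2 FC was 2.14 (SE 0.08) and its ranges lay 3.05 times apart.

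Cp, the ferroxidase that loads iron onto transferrin, was the exception. It measured 38.9, 72.1, 38.1 and 33.6 CPM in the vehicle-treated mice and 25.3, 54.2 and 114 CPM as the lowest, median and highest of the FGF1-treated mice, so that 3 of the 10 lay above and 2 below all vehicle-treated mice. The lowest of these values rests on 31 counts in the library of the lowest depth. Its log2 FC was 0.41 (SE 0.25, 95% confidence interval from -0.08 to 0.91). The SD of Cp among the FGF1-treated mice was 49.7% of the mean, against 10.8% for Dhrs1, 14.8% for S1pr3 and 15.9% for Serpina3n. Vehicle replicate 2, the highest of its group for Cp, Emp1 and Cd44, decided on which side of the thresholds Cp fell: without it the log2 FC of Cp was 0.72 and all 6 members passed. With all libraries, 5 of 6 members passed an adjusted p under 0.05 with a log2 FC above 0.5, where 11.5% of all genes did, and 5 of 6 had groups that did not overlap, where 7.56% of all genes did. Nothing is read from these counts, since this contrast was known when the genes were chosen.

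**Figure D1:**
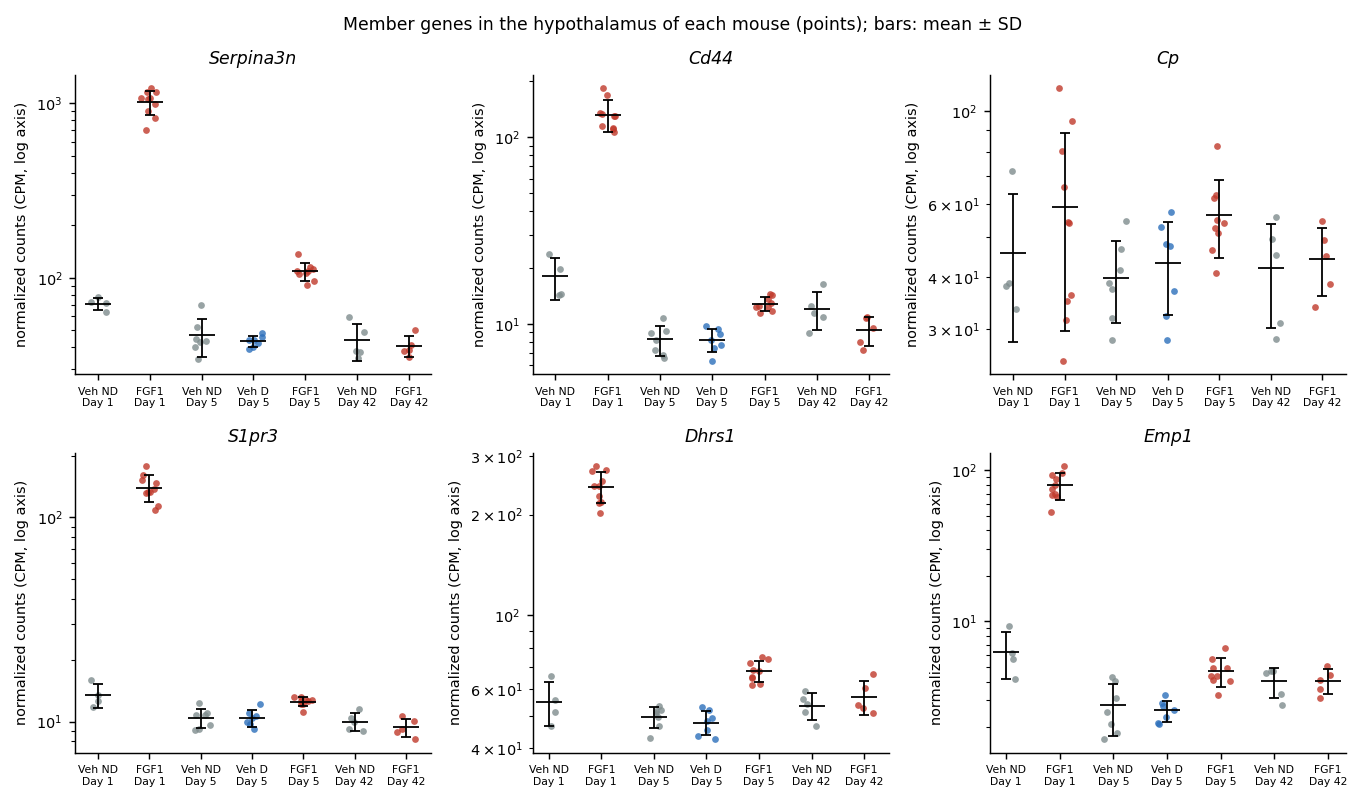
Normalized counts (CPM, log axis) of the 6 measured members in each of the 47 mice, by treatment and day (Veh ND, vehicle labelled non-diabetic; Veh D, vehicle labelled diabetic; red, FGF1), with horizontal bars at the mean and error bars of 1 SD. FGF1-treated mice of Day 1 stand apart from all others for 5 members, with a mean of 1017 CPM for Serpina3n, while the groups overlap throughout for Cp.

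Per kilobase of exon, which allows levels of different genes to be compared, Serpina3n was the most abundant member in FGF1-treated mice of Day 1 at 492.7 CPM per kb, followed by Dhrs1 at 87.8, S1pr3 at 31.3, Cd44 at 19.5, Emp1 at 13.4 and Cp at 6.18 CPM per kb. In non-diabetic vehicle-treated mice of Day 5 the order was Serpina3n at 22.6, Dhrs1 at 17.98, Cp at 4.18, S1pr3 at 2.33, Cd44 at 1.22 and Emp1 at 0.471 CPM per kb. The vehicle-treated mice of Day 1 had the same order, with Serpina3n at 34.5, Dhrs1 at 19.9, Cp at 4.77, S1pr3 at 3.02, Cd44 at 2.66 and Emp1 at 1.06. Within Day 1, Cp was thus the third in the order without FGF1 and the last with FGF1. Emp1 rested on the lowest counts, with values down to 1.67 CPM in a vehicle-treated mouse of Day 5.

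Markers of other cells moved on the same day. None of the 10 astrocyte markers is on the pan-reactive, A1 or A2 lists, though the published study gives Aqp4 among the top genes raised in astrocytes on Day 5. Their summed level ran from 3287 to 3997 CPM with FGF1 and from 4680 to 5328 CPM with vehicle on Day 1, without overlap. By edgeR, 4 of the 10 passed as lower (Gja1, Agt, Gjb6 and Ntsr2), 1, the transcription factor gene Sox9, passed as higher (log2 FC 1.10, SE 0.10), and 5 did not pass, with log2 FCs of 0.33 for Aldh1l1, 0.32 for Aqp4, -0.37 for Slc1a2, -0.38 for Slc1a3 and -0.36 for Aldoc. Among all genes 8.05% passed as lower and 11.5% as higher on that day. The 8 microglial markers summed to 249.7 to 310.1 CPM with FGF1 and 219 to 249 CPM with vehicle. Of these 5 passed as higher and 1, P2ry12, as lower. The 7 measured of 8 tanycyte markers summed to 97.0 to 150 CPM with FGF1 and 147 to 212 CPM with vehicle, with 1 higher and 1 lower. The 4 measured of 8 markers of infiltrating myeloid cells summed to 14.5 to 65.2 CPM with FGF1 and 13.6 to 28.6 CPM with vehicle, with Ccr2, the monocyte chemokine receptor, at a mean of 1.72 and 0.583 CPM, and all 4 passed as higher. The 6 ependymal markers summed to 38.8 to 64.4 CPM with FGF1 and 66.5 to 91.0 CPM with vehicle, with 3 of 6 lower, and 5 of 6 oligodendrocyte markers and 2 of 4 measured choroid plexus markers also passed as lower. The part of these shifts in the levels of the members was not tested.

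On Day 5 after injection, Serpina3n, Cd44, Dhrs1, Emp1 and S1pr3 differed less from either vehicle group than on Day 1. Serpina3n measured 91.4, 109 and 137 CPM as the lowest, median and highest of the 9 FGF1-treated mice, against 34.0, 43.2 and 70.0 CPM in the 7 non-diabetic and 39.2, 43.7 and 48.5 CPM in the 7 diabetic vehicle-treated mice. All FGF1-treated mice lay above all vehicle-treated mice of either group, with log2 FCs of 1.23 (SE 0.11) and 1.33 (SE 0.11). Cd44 measured 11.4, 12.4 and 14.4 CPM with FGF1, against 6.59, 8.23 and 10.8 CPM in non-diabetic and 6.35, 8.20 and 9.71 CPM in diabetic vehicle-treated mice. Its ranges did not overlap either, and both log2 FCs were 0.64 (SE 0.14).

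Dhrs1 measured 61.6, 68.2 and 74.9 CPM as the lowest, median and highest with FGF1, against 43.0, 51.0 and 53.5 CPM in non-diabetic vehicle-treated mice. These ranges did not overlap, but the log2 FC of 0.45 (SE 0.07) stayed under the threshold of 0.5, while that against diabetic vehicle was 0.51 (SE 0.07). Emp1 measured 3.24, 4.37 and 6.69 CPM with FGF1 and 1.67, 2.50 and 4.29 CPM with non-diabetic vehicle, and 6 of the 9 FGF1-treated mice lay above all of the latter. Its log2 FCs were 0.74 (SE 0.20) and 0.85 (SE 0.20) against non-diabetic and diabetic vehicle. S1pr3, which differed 10.4-fold on Day 1, lay nearer to vehicle on Day 5, at 11.2, 12.7 and 13.2 CPM with FGF1 and 9.11, 10.8 and 12.3 CPM with non-diabetic vehicle. Its log2 FCs were 0.27 (SE 0.09) and 0.26 (SE 0.09).

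Cp measured 41.0, 54.1 and 82.5 CPM as the lowest, median and highest with FGF1 and 28.3, 38.7 and 54.7 CPM with non-diabetic vehicle on Day 5, with 4 of the 9 FGF1-treated mice above all of these. Its log2 FCs were 0.50 (SE 0.22) and 0.38 (SE 0.22). Against non-diabetic vehicle, 3 of 6 members (Serpina3n, Cd44 and Emp1) passed the thresholds, where 1.31% of all genes did, and 3 of 6 (Serpina3n, Cd44 and Dhrs1) had groups that did not overlap, where 2.38% did. Against diabetic vehicle 4 of 6 passed, where 2.36% of all genes did, with Dhrs1 as the fourth. These contrasts share the FGF1-treated mice, and nothing is read from the counts.

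**Figure D2:**
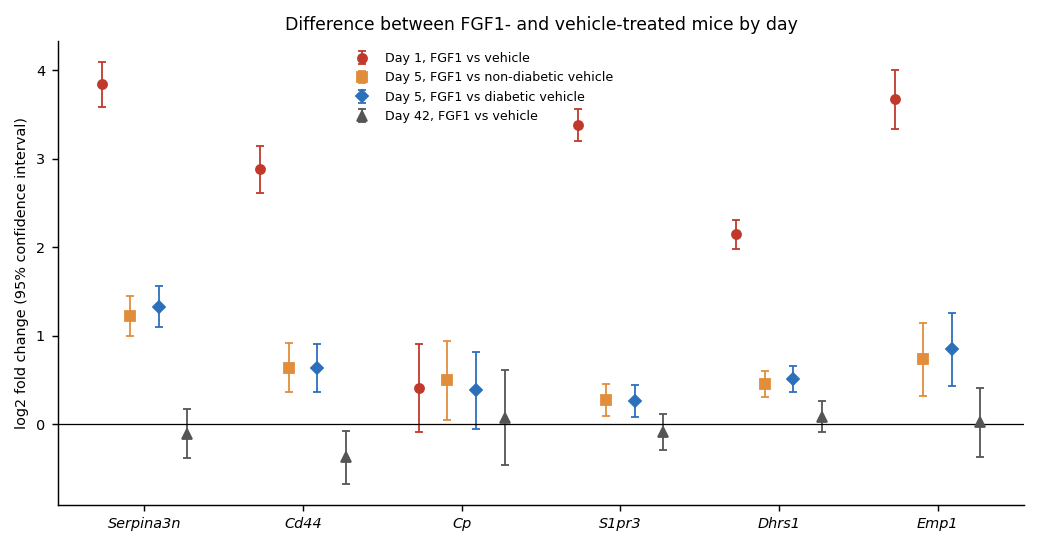
Log2 fold change of FGF1- against vehicle-treated mice for each member on Day 1, on Day 5 against either vehicle group, and on Day 42, with 95% confidence intervals from the edgeR fit. The values are lower on Day 42 than on Day 1 for all 6 members, from 3.84 to -0.11 for Serpina3n and from 3.38 to -0.09 for S1pr3, while the intervals of Cp overlap on all days.

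Against non-diabetic vehicle, the log2 FC of Day 5 was 31.9% of that of Day 1 for Serpina3n, 22.2% for Cd44, 21.1% for Dhrs1, 20.03% for Emp1 and 7.97% for S1pr3. Against diabetic vehicle it was 34.6% for Serpina3n, 22.1% for Cd44, 23.8% for Dhrs1, 23.01% for Emp1 and 7.83% for S1pr3, so the order of Cd44, Dhrs1 and Emp1 turned with the vehicle group. No test compared the members with each other. The difference between the effects, Day 5 minus Day 1, was -3.11 (SE 0.13) on the log2 scale for S1pr3 and -2.61 (SE 0.17) for Serpina3n, the member with the larger effect on Day 1. For Cp the effects of Day 5 and Day 1 differed by 0.08 (SE 0.33), less than their error. The astrocyte marker sum, lower with FGF1 on Day 1, ran from 5304 to 5787 CPM with FGF1 on Day 5. It ran from 4818 to 5094 CPM with non-diabetic and from 4717 to 5217 CPM with diabetic vehicle. Of its 10 markers 1, Aqp4, passed as higher against either vehicle group, where 1.31% and 2.36% of all genes did. On that day the microglial sum ran from 281 to 335 CPM with FGF1, from 228 to 335 CPM with non-diabetic and from 209 to 240 CPM with diabetic vehicle, and 0 of 8 markers passed against non-diabetic and 5 of 8, as higher, against diabetic vehicle, where 2.36% of all genes were higher. The infiltrating myeloid sum ran from 28.1 to 71.8 CPM with FGF1, from 13.3 to 32.5 CPM with non-diabetic and from 17.1 to 28.3 CPM with diabetic vehicle. The part of these shifts in the values of the members was not tested.

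On Day 42, the comparison in which the members had not been chosen to move, no member passed the test of edgeR and the groups overlapped for all 6. By edgeR 0 of 14221 genes (0%) passed in either direction on that day, DESeq2 likewise called 0, and 776 genes (5.46%) had an unadjusted p under 0.05. Serpina3n measured 41.4, 38.1, 49.9, 35.3 and 38.3 CPM in the 5 FGF1-treated mice and 34.7, 38.1, 59.4, 37.6 and 49.1 CPM in the 5 vehicle-treated mice. The values interleave, with a log2 FC of -0.11 and a 95% confidence interval from -0.39 to 0.17 (edgeR adjusted p = 1, exact permutation p = 0.706). The upper bound corresponds to 1.12-fold, so a residue of the size of the effect of Day 5 lay outside the interval.

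Cd44 was the only member with an unadjusted p under 0.05 on Day 42, and it was lower with FGF1. It measured 10.8, 9.52, 7.24, 10.8 and 7.996 CPM in FGF1-treated and 16.3, 8.90, 10.8, 12.5 and 11.4 CPM in vehicle-treated mice. Each of the 5 FGF1-treated mice stood under the median of the vehicle-treated mice and 2 under all of them, yet the groups overlapped. This gave a log2 FC of -0.37 (SE 0.15, edgeR adjusted p = 0.69) and an exact two-sided permutation p of 0.103, where 5 against 5 mice can give no less than 0.00794. For the other members the log2 FC and its 95% confidence interval were -0.09 (-0.29 to 0.11) for S1pr3, 0.09 (-0.09 to 0.26) for Dhrs1, 0.02 (-0.37 to 0.41) for Emp1 and 0.08 (-0.46 to 0.61) for Cp, with exact permutation p of 0.365, 0.389, 0.905 and 0.683.

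No member passed the test between diabetic and non-diabetic vehicle-treated mice of Day 5, the contrast without FGF1. By edgeR and by DESeq2, 0 of 14221 genes (0%) passed, and 193 genes (1.36%) had an unadjusted p under 0.05, none of them a member. The log2 FC, diabetic minus non-diabetic, ran from -0.11 for Emp1 to 0.11 for Cp, and was 0.00 for Cd44 and for S1pr3. The narrowest 95% confidence interval, that of Dhrs1, ran from -0.21 to 0.10, and the widest, that of Cp, from -0.36 to 0.59. Exact two-sided permutation p ran from 0.365 for Dhrs1 to 0.996 for Cd44, with 0.000583 as the least that 7 against 7 mice can give.

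The levels of Cp were set against those of other cell types among mice. Within a group, the level of Cp followed the summed level of 8 fibroblast markers (Col1a1, Col1a2, Dcn, Lum, Pdgfra, Slc6a13, Igf2 and Foxc1), genes typical of the meninges and vessel walls, of which Pdgfra also marks oligodendrocyte precursors. Pearson's r on the log2 scale was 0.91 among the 10 FGF1-treated mice of Day 1 (permutation p = 0.00056, adjusted over 96 relations p = 0.019, Spearman's rho 0.95 with p = 9e-05). It was 0.99 among the 7 diabetic vehicle-treated mice of Day 5 (exact permutation p = 0.000397, adjusted p = 0.019, rho 0.96 with p = 0.00278). Among the 7 non-diabetic vehicle-treated mice of Day 5 it was 0.94 (exact permutation p = 0.00417, adjusted p = 0.0532, rho 0.86 with p = 0.0238) and among the 9 FGF1-treated mice of Day 5 0.78 (exact permutation p = 0.0172, adjusted p = 0.11, rho 0.83 with p = 0.00827). Without the 2 mice farthest from the median of the marker sum, r was 0.82, 0.996, 0.92 and 0.76 in that order, and without the library of the lowest depth it was 0.87 on Day 1 (n = 9, exact permutation p = 0.00328). These relations, of each member with 4 marker lists in the 4 groups of 7 or more mice, were chosen after the values had been seen.

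The relation did not rest on a single marker. Of the 8 markers, 7 correlated positively with Cp in FGF1-treated mice of Day 1, with a median r of 0.63. The markers differed, with r of -0.10 for Igf2, 0.04 for Slc6a13, 0.90 for Dcn and 0.93 for Lum. In FGF1-treated mice of Day 5, 8 correlated positively, with a median r of 0.75. In vehicle-treated mice of Day 5, 7 did so in the non-diabetic group, with Pdgfra at -0.27, and 8 in the diabetic group. By edgeR, 2 of the 8 markers (Dcn and Lum) were higher and 2 (Slc6a13 and Igf2) lower with FGF1 on Day 1. Among all genes 11.5% were higher and 8.05% lower. On Day 5, 3 were higher and 0 lower against non-diabetic vehicle, where 1.31% and 0.232% of all genes were, and 1 was higher and 0 lower against diabetic vehicle. The marker sum itself ran from 124.7 to 432 CPM with FGF1 and from 176 to 285 CPM with vehicle on Day 1, and from 173 to 405 CPM with FGF1, from 144 to 250 CPM with non-diabetic and from 150 to 258 CPM with diabetic vehicle on Day 5. Igf2, at a mean of 0.358 CPM in FGF1-treated mice of Day 1, was the only marker of the list under 1 CPM in any group. This sum was also entered as a covariate in the fit, an alternative chosen after seeing the data. The log2 FC of Cp was then 0.12 (SE 0.12) on Day 1 and -0.09 (SE 0.12) on Day 5 against non-diabetic vehicle. That of Serpina3n was 3.81 (SE 0.13) and 1.15 (SE 0.12). The markers were measured after treatment and some differed with FGF1 themselves. An effect of FGF1 on Cp and a shift of fibroblasts therefore cannot be told apart here. Emp1 also followed the fibroblast markers among FGF1-treated mice of Day 1 (r = 0.84, permutation p = 0.00266, adjusted p = 0.049, rho 0.79 with p = 0.00861, and r = 0.67 without the 2 farthest mice and 0.77 without the library of the lowest depth). Among those of Day 5 the r of Emp1 was 0.78 (n = 9, exact permutation p = 0.0172, adjusted p = 0.11, rho 0.57 with p = 0.121), close to that of Cp, but 0.12 without the 2 farthest mice. For S1pr3 it was 0.67 among FGF1-treated mice of Day 1 (permutation p = 0.0333, adjusted p = 0.177, rho 0.72 with p = 0.0235) and 0.75 among non-diabetic vehicle-treated mice (n = 7, exact permutation p = 0.0577, adjusted p = 0.285, rho 0.71 with p = 0.0881). Whether Cp differed from other members in these relations was not tested. With the covariate the log2 FC of Emp1 on Day 5 was 0.45 (SE 0.17) against non-diabetic vehicle, under the threshold, while against diabetic vehicle Emp1 still passed.

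**Figure D3:**
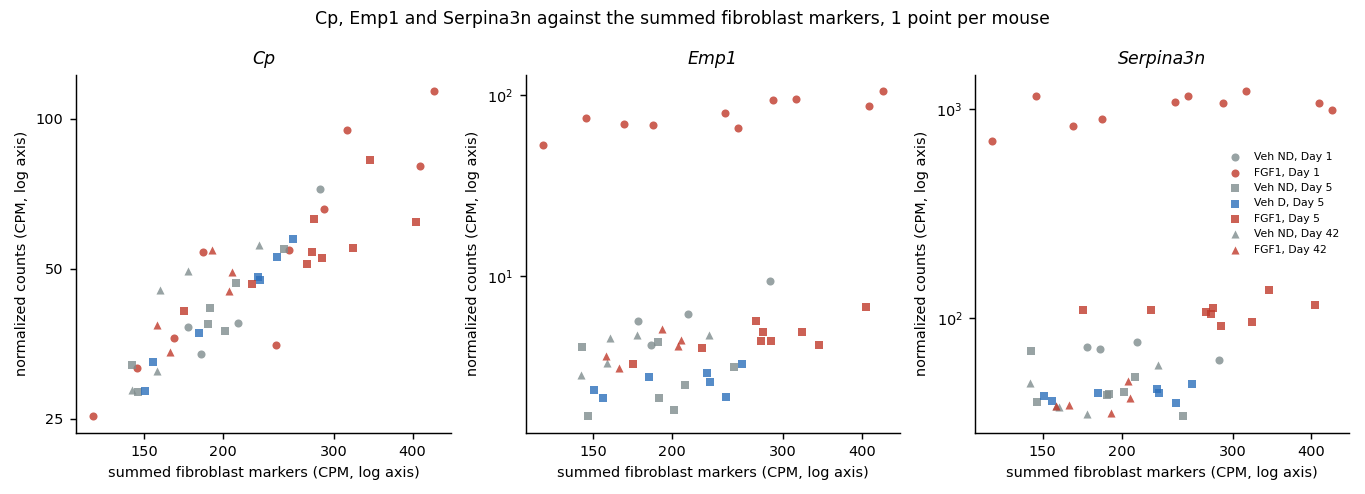
Normalized counts (CPM, log axis) of Cp, Emp1 and Serpina3n against the summed CPM of 8 fibroblast markers (log axis), 1 point per mouse, with color for treatment and shape for day. Among FGF1-treated mice of Day 1, Cp runs from 25.3 CPM in the mouse with the lowest sum (124.7 CPM) to 114 CPM in the mouse with the highest (432 CPM), while Serpina3n lies at 706 CPM or more in all 10 of them.

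The remaining relations with an adjusted p under 0.05 were 3 with the astrocyte markers. S1pr3 fell with the astrocyte marker sum among FGF1-treated mice of Day 1 (r = -0.84, permutation p = 0.00306, adjusted p = 0.049, rho -0.71 with p = 0.0274), with r of -0.65 without the 2 farthest mice and -0.80 without the library of the lowest depth. Serpina3n and Emp1 fell with the same sum among diabetic vehicle-treated mice of Day 5 (r = -0.92 and -0.95, exact permutation p = 0.000794 and adjusted p = 0.019 for both, rho -0.89 and -0.93 with p = 0.0123 and 0.00675), with r of -0.78 and -0.90 without the 2 farthest mice. With ranks in place of values none of these relations kept an adjusted p under 0.05, and of all 96 only that of Cp with the fibroblast markers on Day 1 did (adjusted p = 0.00864). Other lists also gave high r that missed this limit. Dhrs1 followed the microglial sum in FGF1-treated mice of Day 5 (r = 0.84, adjusted permutation p = 0.0532), but not on Day 1 (r = 0.07). Cd44 had r of 0.75 with the endothelial sum in FGF1-treated mice of Day 1 and of Day 5 (adjusted permutation p = 0.11 for both). It was 0.85 with non-diabetic and 0.30 with diabetic vehicle.

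The members themselves were only loosely tied among mice of a group. Of 15 pairs, 13 correlated positively among FGF1-treated mice of Day 1 and 12 among those of Day 5, with median r of 0.48 and 0.25, where the median over all pairs of genes was 0.00 and 0.01. No pair had an adjusted p under 0.05 over the 30 relations, and 3 pairs on Day 1 and 1 on Day 5 had an unadjusted p under 0.05. The closest pair was Cp with Emp1 on Day 1 (r = 0.82, permutation p = 0.00396, adjusted p = 0.119, rho 0.76 with p = 0.0142, and r = 0.61 without the 2 farthest mice). Serpina3n and Dhrs1, the most abundant members per kilobase, were nearly unrelated (r = 0.14 on Day 1 and -0.04 on Day 5, permutation p = 0.698 and exact permutation p = 0.915). Without the library of the lowest depth, the median r of Day 1 was 0.30 and 11 pairs were positive.

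Over the 7 group means the 5 members other than Cp correlated with each other at r from 0.967 to 0.995, and Cp with them at 0.59 to 0.74. Among 14117 other genes with a mean of at least 1 CPM, those most like Serpina3n over the group means were Ggta1, Syngr3 and Rac2, with r of at least 0.996. Those most like S1pr3 were Midn, Lgals3 and Hrh1, those most like Emp1 were Pawr, Fgf2 and Anxa2, those most like Cd44 were S100a6, Pawr and Arrdc4, and those most like Dhrs1 were Nek6, Tnc and Tec, all with r of at least 0.994 when rounded. For Cp they were Col4a5, Hyal1 and Btd, with r of 0.95 at most. These values describe 7 points dominated by a single group, FGF1 on Day 1, and carry no test.

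Most of the other genes of the reactive lists, with the members left out, were higher on Day 1. By edgeR, 19 of 25 measured genes were higher and 1 lower past the thresholds, where 11.5% of all genes were higher and 8.05% lower, with a median log2 FC of 1.92 where that of all genes was 0.01. All 6 measured pan-reactive genes were higher, led by Timp1, an inhibitor of matrix metalloproteases (log2 FC 7.57, SE 0.37), and Hspb1, a small heat shock protein (4.46, SE 0.24). All 8 measured A2 genes were higher, led by Ptgs2, the inducible cyclooxygenase (4.56, SE 0.53), and Cd109, a membrane-anchored protease inhibitor (3.11, SE 0.17). Of 11 A1 genes 5 were higher, led by the interferon-induced GTPase gene Gbp2 (1.70, SE 0.43) and the glycosyltransferase gene Ggta1 (1.38, SE 0.14), and 1 was lower, the matrix gene Fbln5 (-1.40, SE 0.17).

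On Day 5 against non-diabetic vehicle, 10 of these 25 genes were higher and 0 lower past the thresholds, where 1.31% of all genes were higher and 0.232% lower. They comprised 5 of 6 pan-reactive genes, led by Timp1 (1.34, SE 0.43) and Aspg (1.32, SE 0.26), 3 of 11 A1 genes, led by Fbln5, now higher (1.08, SE 0.15), and Serping1, the C1 inhibitor (0.71, SE 0.21), and 2 of 8 A2 genes, Cd109 (1.01, SE 0.17) and Cd14 (0.68, SE 0.20). On Day 42 and between the vehicle groups, 0 of 25 passed by edgeR, as for all genes. These lists, like the members, were chosen with earlier results of these data known.

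**Figure D4:**
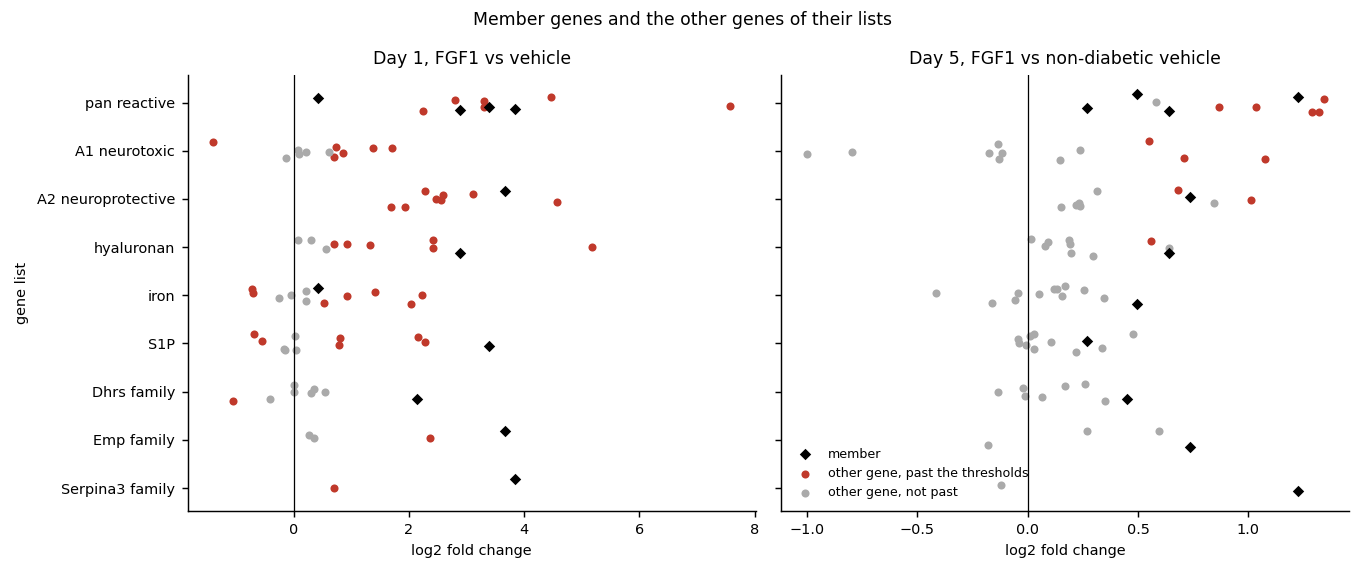
Log2 fold change of FGF1- against vehicle-treated mice for each gene (points) of the reactive lists and of the lists of partner genes, on Day 1 (left) and on Day 5 against non-diabetic vehicle (right), with members as black diamonds, other genes past the thresholds in red and the rest in grey. On Day 1 all pan-reactive and A2 genes other than Cp lie to the right, from 1.69 for Stat3 to 7.57 for Timp1, and on Day 5 a single partner gene, Msn, passed.

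Genes that act with a member in its pathway moved on Day 1 in part. Around Cd44, 6 of 9 measured genes of hyaluronan and its receptors were higher by edgeR, led by Spp1, which encodes osteopontin, a Cd44 ligand (log2 FC 5.18, SE 0.47), and the hyaluronan synthase gene Has1 (2.42, SE 0.29). Msn, which encodes moesin, a linker of Cd44 to actin, was higher on Day 1 (2.41, SE 0.10) and on Day 5 (0.56, SE 0.10). Around S1pr3, 4 of 10 genes were higher, led by the sphingosine kinase gene Sphk1 (2.27, SE 0.37) and the receptor gene S1pr2 (2.15, SE 0.17), and 2 were lower, the receptor gene S1pr5 (-0.69, SE 0.15) and Plpp3, a lipid phosphatase gene (-0.54, SE 0.07). S1pr1, the most widely expressed receptor of the family, differed by 0.03 (SE 0.07).

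Around Cp, 5 of 11 measured genes of iron handling were higher on Day 1, led by the transferrin gene Trf (2.23, SE 0.23) and the heme oxygenase gene Hmox1 (2.04, SE 0.21), and 2 were lower, the iron exporter gene Slc40a1 (-0.72, SE 0.17) and Heph, which encodes hephaestin, the ferroxidase related to Cp (-0.70, SE 0.13). Of the 7 measured relatives of Dhrs1, Dhrs3, a retinal reductase gene, was lower (-1.05, SE 0.14) and the others did not pass. Of the 3 relatives of Emp1, Emp3 was higher (2.37, SE 0.32) and Emp2 (0.26, SE 0.09) and Pmp22 (0.34, SE 0.12) did not pass. Of the 10 listed relatives of Serpina3n only Serpina3g was measured, at a log2 FC of 0.71 (SE 0.30, edgeR adjusted p = 0.0499). The Serpina3 genes are near-identical copies in the mouse, so reads of Serpina3n and its relatives could have been split or shared in counting. In all, 17 of 41 partner genes were higher on Day 1, against 11.5% of all genes. The 5 of 41 that were lower on Day 1 (8.05% of all genes) and the 1 of 41, Msn, that was higher on Day 5 against non-diabetic vehicle (1.31% of all genes) lay near the shares of all genes.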

How the data were processed

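The hypothalamus of each of the 47 mice gave 1 RNA-seq library. Per the published methods and the labels, the authors aligned reads with STAR to a mouse genome, for which a human-style build symbol (GRCh) is given. The methods mention quantile normalization of the counts, but the deposited table holds whole-number counts whose totals differ widely between libraries, and it was treated as raw counts. The counting program and gene filter are not given in the sources used here. All 14221 genes passed the edgeR filter on low counts.

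Counts were scaled by TMM and fitted with edgeR 4.0.16 (R 4.3.3), with 1 mean for each of 7 groups taken from the labels. Its quasi-likelihood test was run per gene, with Benjamini-Hochberg adjustment across the whole table. A gene passed with an adjusted p under 0.05 and an absolute log2 FC above 0.5. SEs were computed from the fitted information and the moderated quasi-dispersion. Exact permutation tests and correlations used log2(CPM + 0.5), with exact enumeration for up to 9 mice and 100000 resamples for 10. Members and lists were chosen with earlier results of these data known. Named list genes were the 2 with the largest absolute log2 FC in each list among those that passed, and partner genes by role. Likeness was ranked over group means. The labels do not say whether mice shared a cage, litter or day, so p-values measure the spread between these mice. No libraries were duplicates, since replicate counts differed beyond sampling noise. Alternatives included DESeq2 1.42.0, other scalings and filters, single-day fits and omitted libraries. Without Steap4 each group gave 15 pairs. Relations of members with marker lists, the marker covariate and the omission of doubted libraries together were added after seeing the data. Programs were tested on simulated data. Coordinates are from GENCODE M21 and promoters from RefSeq.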

Additional observations from a re-analysis of the deposited data

Results flagged for a closer look

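S1pr3 in FGF1 replicate 7 of Day 5 measured 11.2 CPM, below the other 8 mice by 0.505 of the range of the group on the log2 scale. It was the only mouse flagged for such a gap in 42 combinations of a member with a group. Chance flags about 1 combination in 20, so this is not more than chance gives.

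Cd44 was higher than the vehicle median in every FGF1-treated mouse of Day 1 and of Day 5 and lower in every one of Day 42, where its log2 FC was -0.37. The difference between days was not tested, since Days 1 and 5 were known when the gene was chosen.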

How the results depend on the processing

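Of 91 counts recomputed under an alternative, 89 stayed within 1.5 times of the reported count. Without a threshold on the fold change, 5 partner genes passed on Day 5 against non-diabetic vehicle and 8 against diabetic vehicle, in place of 1 and 3, since the lower bar admits smaller differences. Of 354 log2 FCs of single members, 337 kept their direction, their side of the threshold or a place within 1 SD among mice, and none that had passed changed sign. Cp on Day 5, which had not passed, changed sign and moved by more than 1 SD with the summed fibroblast markers as a covariate, from 0.50 to -0.09 against non-diabetic and from 0.38 to -0.07 against diabetic vehicle. The others that changed sign started between -0.11 and 0.11: with that covariate, Cp and Emp1 on Day 42 (-0.0213 and -0.0321) and Cd44, Cp and S1pr3 between the vehicle groups (-0.0121, -0.0140 and -0.0125), and with at least 10 counts in every library, Cd44 and S1pr3 between the vehicle groups (-0.00256 and -1.84e-05). Leaving out each mouse of Day 42 in turn gave log2 FCs from -0.196 to 0.0279 for Serpina3n, -0.0356 to 0.200 for Cp and -0.0828 to 0.0946 for Emp1, and 0 members passed each time.

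On Day 1, leaving out each vehicle-treated mouse in turn gave 5 to 6 members past the thresholds, the sixth being Cp without replicate 2. With neither that library nor the shallowest FGF1 library, 6 passed. In a fit of each day alone Cp also passed on Day 5 against non-diabetic vehicle, and with the covariate Emp1 did not. Without a threshold on the fold change, Dhrs1 also passed there and S1pr3 against diabetic vehicle. No pair of members passed under any alternative of the covariation.

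No paired analysis was possible because replicate numbers were given in accession order, different mice made up each group and nothing in the labels pairs them. The lowest depth, 1243280 counts, was in FGF1 replicate 1 of Day 1.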
